A study of Mus musculus with 6 samples.

Results

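The genes examined here encode the voltage-gated sodium channels (Nav), the voltage-gated calcium channels (Cav) and the hyperpolarization-activated cyclic nucleotide-gated (HCN) channels of the mouse medial prefrontal cortex (mPFC). Members were taken by gene symbol alone, and 36 of the 31763 genes in the deposited table met the rule: 10 Nav α and 4 Nav β subunits, 10 Cav α1, 4 α2δ and 4 β subunits, and 4 HCN channels. RNA-seq was carried out on 3 morphine and 3 saline samples of mPFC to ask which transcripts differed after morphine-induced conditioned place preference (CPP), a test in which a mouse comes to prefer the compartment paired with a drug. Morphine mice received 10 mg/kg and saline mice 10 ml/kg, both by intraperitoneal injection. All mice were male C57BL/6J of 8 to 10 weeks, and mPFC was taken right after a last test of preference that followed daily conditioning and a drug-free period in the home cage. The labels do not say whether each sample is a separate animal, so p-values measure only the spread between these samples.

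Nav channels open on depolarization and carry the upstroke of the action potential. Their large α subunit forms the pore, and the small β subunits set gating and surface expression. Cav channels turn depolarization into calcium entry at synapses, dendrites and cell bodies, with an α1 pore and auxiliary α2δ and β subunits that carry it to the membrane. HCN channels open on hyperpolarization, pass the Ih current and damp the summation of inputs in the dendrites of cortical pyramidal neurons. In bulk tissue, fewer cells of a type and less RNA per cell cannot be told apart.

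Total counts were 17984153 to 23529592 per morphine library and 19543377 to 22776251 per saline library. The channel genes together took 0.690% to 0.700% of counts in morphine libraries and 0.664% to 0.698% in saline libraries. A gene was tested if 3 or more libraries each held at least 10 of its counts, which 18970 genes, 32 of them channel genes, did. Saline sample 1 stood apart. Of 19 olfactory bulb markers found, 17 were over 2 times the highest other library there, and their summed CPM, read counts scaled to library size with TMM factors, was 345 to 363 in morphine samples and 1050, 343 and 348 in saline samples 1, 2 and 3. The bulb marker Eomes had 1 to 7 counts in morphine libraries and 462, 2 and 0 counts in saline libraries 1, 2 and 3, whereas summed CPM of 8 cortical excitatory markers was 4750 to 5212 in morphine samples and 4059 to 4979 in saline samples, lowest in saline sample 1. Fold changes that this library moved by over 1.5 times or turned in sign are given with and without it, and the part of the bulb markers in any result was not tested.

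Compared with saline controls, no channel gene was called different in morphine mice after adjustment over all genes. The edgeR quasi-likelihood test gave 0 of 32 members, and 0% of all genes tested, an adjusted p under 0.05, and DESeq2 likewise called 0 members. At an unadjusted p under 0.05, edgeR found 0 members higher in morphine, against 2.77% of all genes, and 4 members lower, against 4.96% of all genes. The 4 were the L-type calcium channel gene Cacna1d, the T-type calcium channel gene Cacna1h, and the HCN channel genes Hcn3 and Hcn4. The count lower was 1 without saline sample 1, against 7.53% of all genes. It was 0 without morphine sample 1, 2 without morphine sample 2 or 3 and 7 without saline sample 2. The shares of all genes in those last fits are not given. Morphine and saline libraries did not overlap for 0 members on the higher side and 3 on the lower side, where 5.98% and 7.32% of all genes did not. No member differed by more than 2-fold at that p, as 0.664% of all genes did. The median log2 fold change, morphine over saline, was -0.00 over the 32 members and -0.01 over all genes tested, with 16 members above 0 and 16 below. For 28 members the 95% interval lay within a 1.5-fold change either way, against 63.7% of all genes, and the exceptions included Scn4b, Cacna1s and Hcn4.

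**Figure D1:**
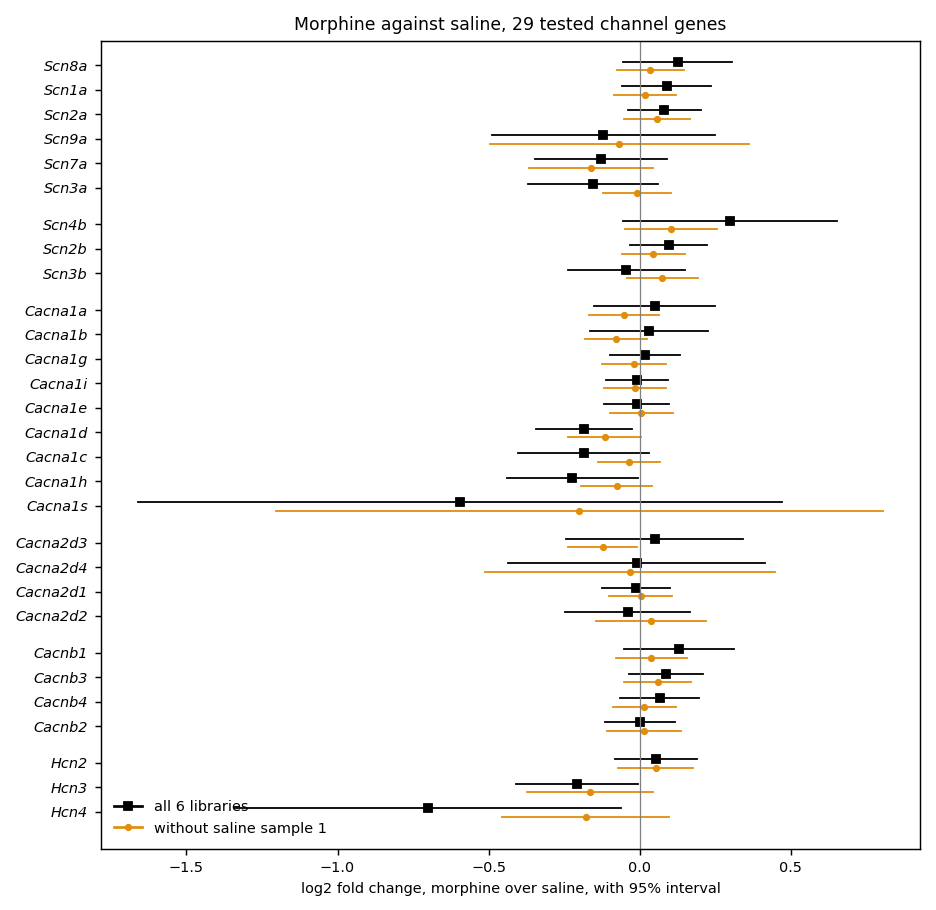
Log2 fold change, morphine over saline, of 29 of the tested channel genes, for all 6 libraries (squares) and without saline sample 1 (circles). Genes are grouped by family, and 95% intervals were worked out from the edgeR F statistic. The intervals of Cacna1d, Cacna1h, Hcn3 and Hcn4 lie below 0 with all 6 libraries, and that of Cacna2d3 lies below 0 without saline sample 1.

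Among the Nav α subunits, Scn2a, which encodes the Nav1.2 channel of excitatory axons, was the most abundant. Its FPKM, a count scaled to transcript length and library size, was 71.3, 69.6 and 73.0 in morphine samples 1, 2 and 3 and 66.6, 68.1 and 70.3 in saline samples 1, 2 and 3, and it made up 46.2% ± 0.452 of Nav α FPKM in morphine and 46.0% ± 1.08 in saline samples (SD, n = 3 each). The groups overlapped, since saline sample 3 lay above morphine sample 2, and edgeR gave Scn2a a log2 fold change of 0.08 (SE 0.05, 95% interval -0.04 to 0.20, adjusted p = 0.709).

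The levels of the other Nav α genes are means over the 6 libraries. Scn8a, whose product Nav1.6 predominates at the distal axon initial segment, followed at 43.0 FPKM, and Scn1a, whose product Nav1.1 is known from parvalbumin interneurons, at 26.5 FPKM. Scn3a, a mainly embryonic form, had 8.79 FPKM, and Scn7a, the atypical sodium-sensing Nax, had 2.74 FPKM. Scn9a, best known from peripheral sensory neurons, had 0.267 FPKM. Over the 6 libraries none of these genes overlapped another in level. The edgeR log2 fold changes were 0.13 for Scn8a, 0.09 for Scn1a, -0.15 for Scn3a, -0.13 for Scn7a and -0.12 for Scn9a, none past an unadjusted p of 0.05. Without saline sample 1 they were 0.04 for Scn8a, 0.02 for Scn1a, -0.01 for Scn3a, -0.16 for Scn7a and -0.07 for Scn9a, so that those of Scn8a, Scn1a and Scn3a lay closer to 0.

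The remaining Nav α genes, known from muscle and sensory ganglia, were under the filter. Scn4a, the skeletal muscle form, had 1 count in morphine sample 2 and none in any other library. The sensory neuron genes had few counts as well: Scn10a had 9, 4 and 5 counts in morphine libraries and 4, 4 and 6 in saline libraries, and Scn11a had 0, 2 and 3 in morphine and 1, 0 and 0 in saline. A difference in any of them was not detectable at this depth.

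The Nav genes lie in groups on the chromosomes (GRCm38). Scn3a (chr2:65457118-65567627, minus strand) and Scn2a (chr2:65620771-65767447, plus strand) are 53143 bp apart, and Scn1a, Scn9a and Scn7a follow on the same chromosome from chr2:66270778-66440840 to chr2:66673425-66784914 with no coding gene between them. FPKM in this row of 5 genes ran from 69.8 for Scn2a to 0.267 for Scn9a. Scn10a and Scn11a adjoin each other on chromosome 9 with no coding gene between them, at 0.0334 and 0.0079 FPKM. Scn9a had 422 counts over the 6 libraries and the antisense Gm13629 had 347, but their exons share only 180 of the 12772 exon bases of Scn9a. The sources do not say whether counting used the strand, so reads over the shared bases may not be told apart.

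Among the Nav β genes, Scn2b, which encodes the disulfide-linked β2, had 79.5, 77.9 and 80.2 FPKM in morphine samples 1, 2 and 3 and 70.5, 77.7 and 77.0 FPKM in saline samples 1, 2 and 3. Morphine lay just above saline on FPKM, whereas on CPM the groups overlapped, with 359.7 in morphine sample 2 and 363 in saline sample 2. The edgeR log2 fold change was 0.10 (SE 0.06, adjusted p = 0.692), and 0.05 without saline sample 1. Scn4b, the subunit known for resurgent sodium current (19.0 FPKM), and Scn3b (18.5 FPKM) overlapped in level. The log2 fold change of Scn3b was -0.04, and turned to 0.07 without saline sample 1.

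Scn4b had the highest log2 fold change of all members tested, and saline sample 1 was the lowest library. It had 110, 109 and 95.3 CPM in morphine samples 1, 2 and 3 and 60.6, 107 and 87.3 CPM in saline samples 1, 2 and 3. The log2 fold change was 0.30 (SE 0.16, adjusted p = 0.673 in edgeR) and 0.10 (SE 0.07) without saline sample 1.

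**Figure D2:**
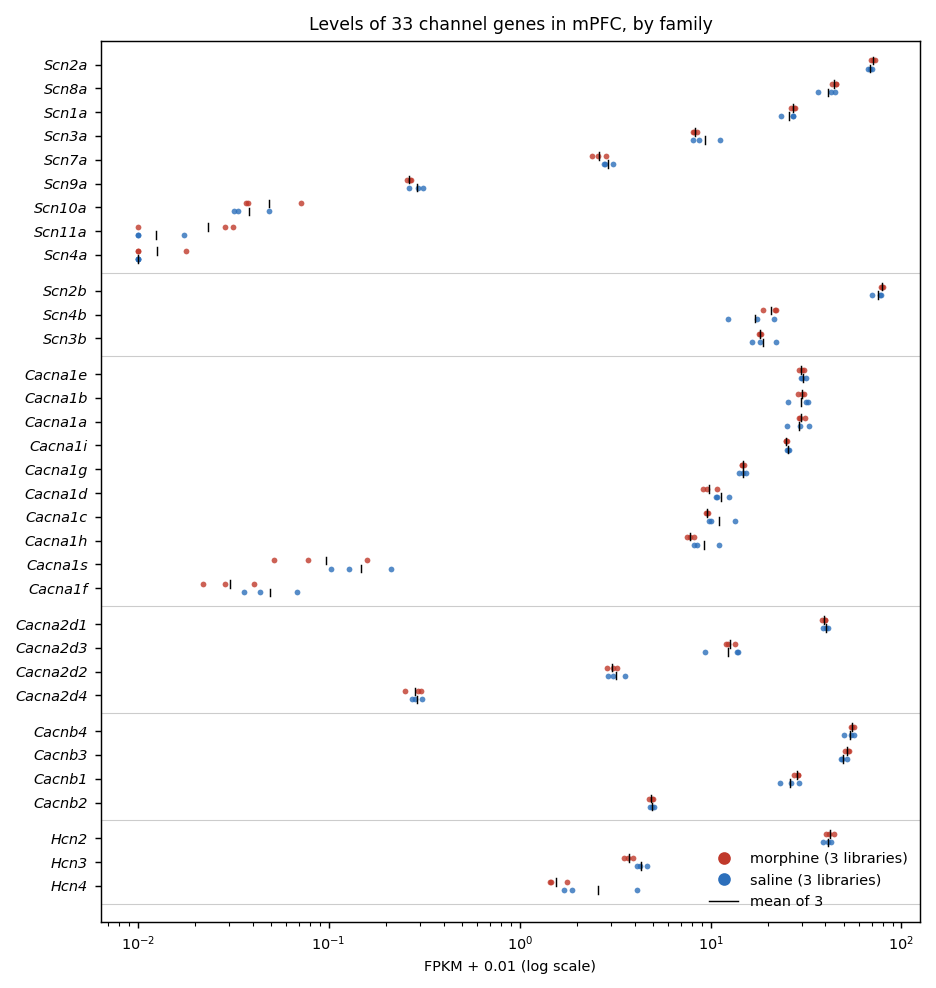
FPKM plus 0.01, on a log axis, of 33 channel genes in each of 3 morphine and 3 saline libraries, with bars at the mean of each group, ordered by level within each family. Scn2b is the most abundant gene drawn, at 77.1 FPKM over the 6 libraries, and Scn4a the least, and morphine and saline points overlap for most genes.

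Among the Cav α1 subunits, the Cav2 genes, which encode the channels that trigger transmitter release, led together. Cacna1e (R-type) had 30.0, 30.7 and 28.9 FPKM in morphine samples 1, 2 and 3 and 31.5, 30.2 and 29.8 FPKM in saline samples 1, 2 and 3. Cacna1b (N-type, 29.9 FPKM) and Cacna1a (P/Q-type, 29.5 FPKM) did not differ from it in level beyond their ranges. The T-type Cacna1i (25.2 FPKM) met the range of Cacna1a only through saline sample 1, with 25.2 FPKM for Cacna1a and 25.4 FPKM for Cacna1i. In every other library Cacna1a had at least 29.1 FPKM and Cacna1i at most 25.8 FPKM. The log2 fold changes in edgeR were -0.01 for Cacna1e (95% interval -0.12 to 0.10, adjusted p = 0.960), 0.03 for Cacna1b and 0.05 for Cacna1a, and the interval of each lay within 1.5-fold. Without saline sample 1 the direction of all 3 turned, at 0.01 for Cacna1e, -0.08 (SE 0.05) for Cacna1b and -0.05 (SE 0.06) for Cacna1a. Saline sample 1 was the lowest library for Cacna1a (283 CPM against 333 to 360 in morphine samples and 336 and 377 in the other saline samples) and for Cacna1b.

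T-type channels, which open near rest and support burst firing, were expressed in the order Cacna1i, Cacna1g (14.7 FPKM) and Cacna1h (8.54 FPKM). Cacna1i and Cacna1g had log2 fold changes of -0.01 and 0.02, both -0.02 without saline sample 1. Cacna1h had 74.6, 79.0 and 77.2 CPM in morphine samples 1, 2 and 3 and 107, 80.1 and 82.4 CPM in saline samples 1, 2 and 3. All 3 morphine libraries were below all 3 saline libraries, with saline sample 1 far above the others. The log2 fold change was -0.22 (SE 0.10, edgeR unadjusted p = 0.0448, adjusted p = 0.638), and without saline sample 1 it was -0.08 (SE 0.06, unadjusted p = 0.190 in edgeR).

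L-type channels couple calcium entry to gene expression in neurons. Cacna1d, which encodes the low-threshold L-type channel Cav1.3, had 123, 135.1 and 117 CPM in morphine samples 1, 2 and 3 and 155, 135.2 and 135.7 CPM in saline samples 1, 2 and 3. The groups did not overlap on CPM only because morphine sample 2 lay just under saline sample 2, and they did overlap on FPKM (10.8 in morphine sample 2 against 10.7 in saline sample 2). Chdh, which overlaps exons of Cacna1d on the opposite strand, had 461 counts against its 16478. The log2 fold change of Cacna1d was -0.18 (SE 0.07, edgeR unadjusted p = 0.0270, adjusted p = 0.616) and -0.12 (SE 0.06, unadjusted p = 0.0592 in edgeR) without saline sample 1.

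Cacna1c, which encodes Cav1.2, the main L-type channel of the forebrain, was near Cacna1d in level (10.3 and 10.6 FPKM). It had 202, 205 and 207.0 CPM in morphine samples 1, 2 and 3 and 278, 213 and 206.6 CPM in saline samples 1, 2 and 3, with a log2 fold change of -0.19 (SE 0.10, adjusted p = 0.672 in edgeR), and -0.04 (SE 0.05) without saline sample 1. The muscle form Cacna1s had 0.112 FPKM, overlapped by the antisense Gm37759 with 20 counts against its 94, and a log2 fold change of -0.59 (SE 0.48), or -0.20 (SE 0.48) without saline sample 1. Cacna1f, the retinal form, was under the filter with 2, 5 and 4 counts in morphine and 12, 5 and 6 in saline libraries. Summed FPKM of the L-type genes was 19.5 ± 0.957 in morphine samples and 22.5 ± 3.08 in saline samples (SD, n = 3 each), where saline sample 1 had 26.1.

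The α2δ subunits carry α1 subunits to the membrane, and those encoded by Cacna2d1 and Cacna2d2 are the binding sites of gabapentin. Cacna2d1 led with 39.7, 38.4 and 39.9 FPKM in morphine samples 1, 2 and 3 and 41.4, 38.8 and 40.3 FPKM in saline samples 1, 2 and 3, and an edgeR log2 fold change of -0.01 (SE 0.05, adjusted p = 0.956), or 0.0029 without saline sample 1. Cacna2d3 followed at 12.5 FPKM, then Cacna2d2 at 3.11 and Cacna2d4 at 0.275 FPKM, with no overlap between neighbours. Cacna2d2 and Cacna2d4 had log2 fold changes of -0.04 and -0.01, or 0.04 and -0.03 without saline sample 1.

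Cacna2d3 turned in sign with saline sample 1 and crossed the threshold. It had 107, 116 and 110 CPM in morphine samples 1, 2 and 3 and 79.9, 122 and 119 CPM in saline samples 1, 2 and 3. With all libraries the log2 fold change was 0.05 (SE 0.13, unadjusted p = 0.715 in edgeR). Without saline sample 1 it was -0.12 (SE 0.05, edgeR unadjusted p = 0.0341, adjusted p = 0.369), and it was then the 1 member lower at an unadjusted p under 0.05, against 7.53% of all genes.

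The Cav β subunits, which bind α1 inside the cell and prevent its degradation, were led by Cacnb4 and Cacnb3. Cacnb4 lay above Cacnb3 in every library. Their ranges overlapped only through saline sample 1, with 50.3 FPKM for Cacnb4 and 48.2 FPKM for Cacnb3. Cacnb4 had 56.5, 54.6 and 54.8 FPKM in morphine samples 1, 2 and 3 and 50.3, 54.2 and 56.1 FPKM in saline samples 1, 2 and 3, with a log2 fold change of 0.07 (SE 0.06, adjusted p = 0.778 in edgeR), and 0.02 without saline sample 1. Cacnb3 had 50.9 FPKM, Cacnb1 27.3 and Cacnb2 4.90 FPKM over the 6 libraries. Their log2 fold changes were 0.09, 0.13 and 0.00, or 0.06, 0.04 and 0.01 without saline sample 1, and none passed an unadjusted p of 0.05 either way.

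Hcn2, a widespread forebrain HCN channel, was the most abundant of its family. It had 44.4, 40.3 and 41.5 FPKM in morphine samples 1, 2 and 3 and 41.4, 42.9 and 38.8 FPKM in saline samples 1, 2 and 3. Its share of HCN FPKM averaged 70.9% in morphine samples and 68.6% in saline samples and ran from 67.5% to 71.5% over the 6 libraries, and its log2 fold change was 0.05 (SE 0.06, adjusted p = 0.823 in edgeR). Hcn3 (4.02 FPKM) lay above Hcn4, the sinoatrial pacemaker channel (2.06 FPKM), in every library. Their ranges overlapped only through saline sample 1, where Hcn4 had 4.13 FPKM and Hcn3 had 4.65 FPKM.

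Hcn3 had 15.5, 16.1 and 14.9 CPM in morphine samples 1, 2 and 3 and 19.0, 17.2 and 17.6 CPM in saline samples 1, 2 and 3. All morphine libraries were below all saline libraries, and the log2 fold change was -0.21 (SE 0.09, edgeR unadjusted p = 0.0435, adjusted p = 0.634), or -0.16 (SE 0.10, unadjusted p = 0.118 in edgeR) without saline sample 1. Hcn4 had 9.01, 8.72 and 10.9 CPM in morphine samples 1, 2 and 3 and 24.8, 10.4 and 11.4 CPM in saline samples 1, 2 and 3. The groups overlapped, and saline sample 1 was 2.46 times the mean of the other 5 libraries. The log2 fold change of Hcn4 was -0.70 (SE 0.29, edgeR unadjusted p = 0.0345, adjusted p = 0.619), and -0.18 (SE 0.13, unadjusted p = 0.190 in edgeR) without saline sample 1. With no filter on low counts Hcn4 alone of the members reached an edgeR adjusted p under 0.05 (0.0062), a call that no other setting gave.

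**Figure D3:**
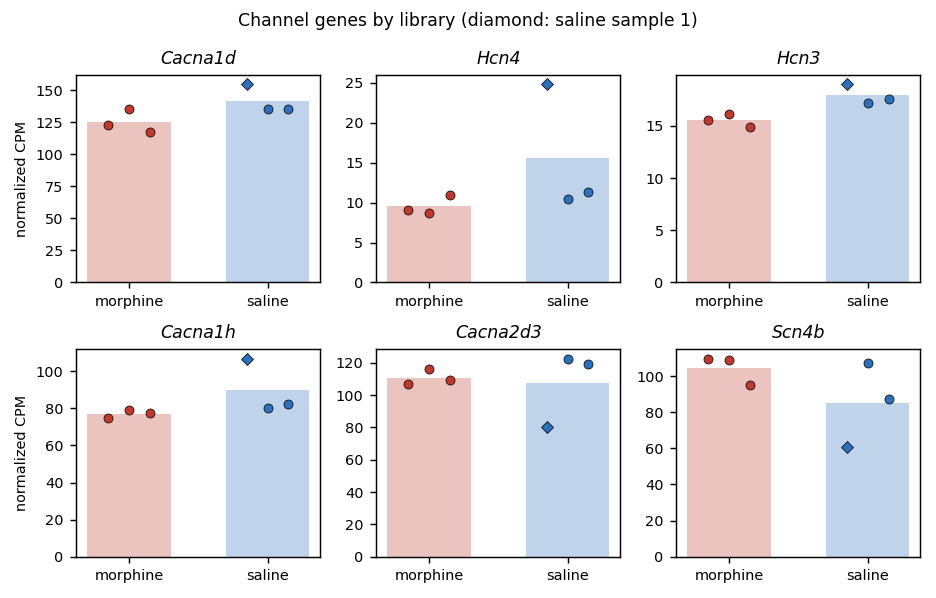
Normalized CPM of 6 channel genes in each morphine and saline library, with bars at the group mean and a diamond for saline sample 1. Saline sample 1 is the highest library for Cacna1d, Hcn4, Hcn3 and Cacna1h and the lowest for Cacna2d3 and Scn4b, with 24.8 CPM for Hcn4 against at most 11.4 in any other library.

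Promoters of 4 of these genes are shown as the 250 bases upstream of a RefSeq start (GRCm38.p6), 5′ to 3′ on the strand of the gene. Scn2a and Hcn2 were the most abundant pore subunits of their families. Hcn4 was among the members high in saline sample 1, and Cacna2d3 among those low in it. Capitals mark GC boxes, the letters GGGCGG on either strand.
Scn2a: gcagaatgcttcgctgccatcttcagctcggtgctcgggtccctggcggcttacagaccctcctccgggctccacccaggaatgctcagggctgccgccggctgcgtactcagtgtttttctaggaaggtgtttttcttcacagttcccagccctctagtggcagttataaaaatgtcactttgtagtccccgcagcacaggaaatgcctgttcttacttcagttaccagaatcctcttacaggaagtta
Hcn2: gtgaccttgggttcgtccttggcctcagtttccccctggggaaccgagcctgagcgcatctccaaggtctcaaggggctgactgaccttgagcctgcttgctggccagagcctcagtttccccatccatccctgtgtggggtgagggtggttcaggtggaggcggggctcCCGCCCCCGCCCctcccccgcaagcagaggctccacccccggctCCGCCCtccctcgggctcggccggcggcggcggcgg
Hcn4: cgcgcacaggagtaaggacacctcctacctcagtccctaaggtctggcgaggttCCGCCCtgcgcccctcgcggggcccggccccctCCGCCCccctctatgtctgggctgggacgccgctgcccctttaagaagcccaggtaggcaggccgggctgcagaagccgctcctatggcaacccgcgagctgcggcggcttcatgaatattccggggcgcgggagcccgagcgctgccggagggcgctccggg
Cacna2d3: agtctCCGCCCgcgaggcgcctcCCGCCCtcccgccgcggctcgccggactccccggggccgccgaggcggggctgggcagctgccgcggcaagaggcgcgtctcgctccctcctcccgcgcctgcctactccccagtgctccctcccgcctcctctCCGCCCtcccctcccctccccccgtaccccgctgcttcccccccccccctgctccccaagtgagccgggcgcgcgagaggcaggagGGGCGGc
These windows are Scn2a chr2:65668436-65668685 (plus strand), Hcn2 chr10:79716384-79716633 (plus strand), Hcn4 chr9:58822699-58822948 (plus strand) and Cacna2d3 chr14:29721865-29722114 (minus strand). The Scn2a window lies inside the gene span given above, and another RefSeq promoter of Scn2a, chr2:65620519-65620818, is not shown. The bases just after the start were not found in an annotated transcript for Hcn4 or for that other Scn2a promoter. For the windows of Scn2a, Hcn2 and Cacna2d3 they were. The windows of Hcn2, Hcn4 and Cacna2d3 hold 3, 2 and 4 GC boxes and that of Scn2a holds none. RefSeq gave 36 promoters for 26 members. In the 250 bases upstream, 15 of them (41.67%) held a GC box, against 32.74% of all 32851 promoters, and 2 (5.56%) held TATAAA, against 12.37%. None held the cyclic AMP response element TGACGTCA or the E-box CACGTG on either strand, as 1.55% and 6.02% of all promoters did. A match describes the letters and not a bound site.

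Saline sample 1 was the highest or the lowest library for 27 of the 32 tested members (84.4%), against 47.0% of all genes, while each other library was so for 3 to 13 members. It was above all other libraries for 13 members (24.9% of all genes) and below them for 14 (22.1% of all genes). For 6 members, it was at least 1.2 times the highest other library, against 7.06% of all genes, Hcn4, Cacna1s, Cacna1h, Cacna1c and Scn3a among them. The high members held the mainly embryonic α subunit Scn3a (102, 105 and 104 CPM in morphine samples, 137, 101 and 108 CPM in saline samples 1, 2 and 3) and the L-type genes, while Scn4b, Cacna2d3, Scn8a, Cacna1b, Cacnb1, Cacna1a and Scn1a were among the low members. The ratio of saline sample 1 to the mean of the other 5 libraries was 2.46 for Hcn4 and 0.60 for Scn4b. Olfactory bulb markers moved with this pattern in the same library, and their part in it was not tested.

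Without saline sample 1, edgeR tested 18671 genes and gave 186 of them, and 0 of the 32 members, an adjusted p under 0.05. With so few genes called, the count of 0 is not read as a result about the members. The members then counted 0 higher, against 4.14% of all genes, and 1 lower at an unadjusted p under 0.05. Cacna1d, Cacna1h, Hcn3 and Hcn4 all stayed below 0, and none was past that threshold.

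**Figure D4:**
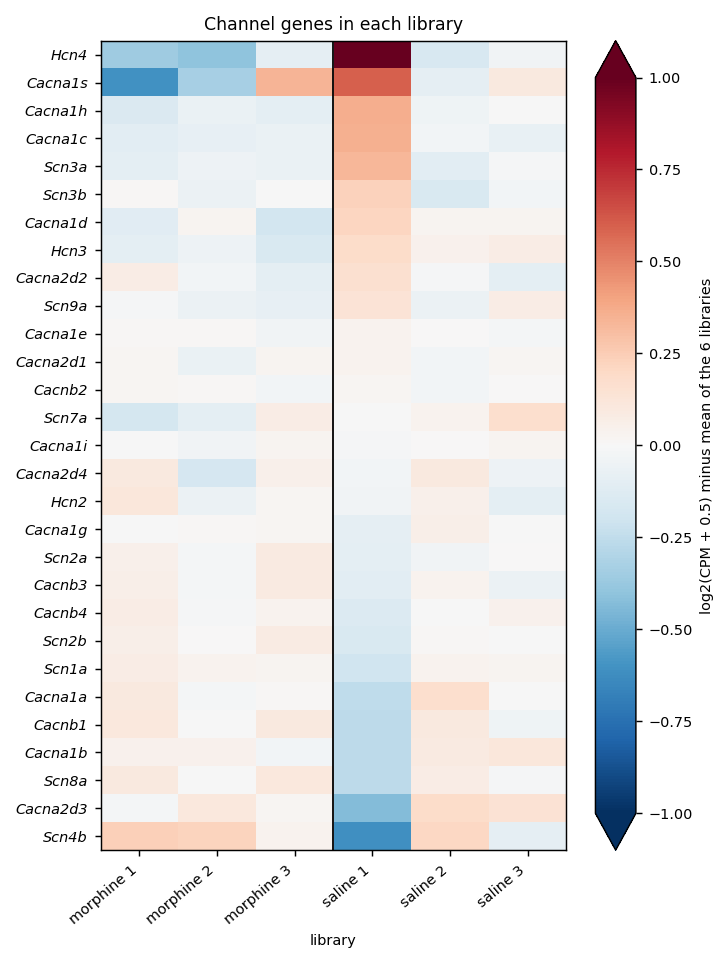
Normalized log2(CPM + 0.5) of 29 of the tested channel genes in each library, minus the mean of the 6 libraries, with red for higher and blue for lower and genes ordered by saline sample 1. Colours are capped at 1 either way. Saline sample 1 shows the widest spread, from Hcn4 at the top to Scn4b at the bottom, and is the highest or lowest library for 24 of the 29 genes drawn.

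Partner genes here are non-members of the same channel complexes or of related channel families, counted in the same test. Besides partners of Nav, Cav and HCN channels, the lists held the Cacng family and the sodium leak channel complex. They also held cyclic nucleotide-gated and lysosomal cation channels. Of 55 partner genes found, 49 were tested, with 0 higher and 2 lower in morphine at an unadjusted p under 0.05 in edgeR, shares near or below the 2.77% and 4.96% of all genes, so the pair is given as values only. Stac3, an adaptor of L-type channels, had 2.60, 2.65 and 2.03 CPM in morphine samples and 3.32, 3.63 and 4.04 CPM in saline samples, with no overlap and a log2 fold change of -0.60 (SE 0.19, edgeR unadjusted p = 0.0111, adjusted p = 0.605), or -0.67 (SE 0.22) without saline sample 1. Cacng5, of the transmembrane AMPA receptor regulatory family, had 6.08, 6.57 and 6.79 CPM in morphine samples and 49.8, 5.14 and 6.79 CPM in saline samples 1, 2 and 3. The groups overlapped and saline sample 1 was the one high library, with a log2 fold change of -1.68 (SE 0.71, edgeR unadjusted p = 0.0388, adjusted p = 0.627). Without saline sample 1 it was 0.13 (SE 0.17). That fit gave 2 partners lower at an unadjusted p under 0.05, against 7.53% of all genes, and 0 higher, against 4.14%. The 2 lower were Stac3 and the Cav regulator Cabp1. The log2 fold change of Cabp1 was then -0.16 (SE 0.05, edgeR unadjusted p = 0.0061, adjusted p = 0.177), and 0.03 (SE 0.15) with all libraries.

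The other lists held no gene at that threshold. Among fibroblast growth factor homologous factors and calmodulins, which bind the Nav C-terminus, Fgf11 had the lowest p (log2 fold change -0.24). Among axon initial segment genes it was Ank1 (-0.09), among HCN partners Pex5l, which encodes TRIP8b (0.12), and among genes of the sodium leak channel complex Unc80 (-0.05), and among cyclic nucleotide-gated and lysosomal cation channels Tpcn2 (-0.10). Without saline sample 1 these were -0.09 for Fgf11, -0.05 for Ank1, 0.02 for Pex5l, -0.04 for Unc80 and -0.12 for Tpcn2. The median log2 fold change over the 49 partner genes was 0.01.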

How the data were processed

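RNA of mPFC from 3 morphine and 3 saline samples was sequenced after rRNA depletion with a directional kit, and groups and replicate numbers came from the sample titles. The authors deposited 1 table with a whole-number count per gene and library, not normalized. The authors' FPKM are these counts over a gene length and the total count, as the ratio of count to FPKM showed for 13342 genes with at least 50 counts. Exon lengths from GENCODE matched for all 34 of 36 members where a length could be worked out. Scn4a and Scn11a had 0 counts in morphine sample 1, the library used, and could not be checked. The submitters' processing notes name the build mm10 (GRCm38), the counter HTSeq (0.11.2), the aligner HISAT2 (2.1.0) and the trimmer cutadapt (1.9.3), and also StringTie (1.3.3), limma (3.40.6), DESeq (1.8.3) and a release of DESeq2 (1.26.0), with no order or options. Whether counting used the strand is not stated in these sources. Reads over bases shared with opposite-strand exons, which 10 members have, may therefore not be told apart.

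Genes that reached 10 counts in 3 or more libraries entered TMM normalization and the two-sided quasi-likelihood F test of edgeR 4.0.16 (R 4.3.3), with group as the only term and Benjamini-Hochberg adjustment over all genes tested. Standard errors in the edgeR fits were the absolute log2 fold change over the square root of the F statistic. Their 95% intervals took the t quantile at the total degrees of freedom. The test was tried on simulated data. Replicate pairs differed by 2.91 to 14.7 times the sampling noise (chi-square over degrees of freedom), so none was a library deposited again. Alternatives were RLE factors, DESeq2 1.42.0, a replicate block, the filter dropped or raised to 10 counts in every library, limma 3.58.1 on log2(FPKM + 0.1) or log2(FPKM + 1), each library left out, and DESeq2 without saline sample 1. Values per library were given for members at an unadjusted p under 0.05 or without overlap and for the most abundant of each family, and for partners at that p or lowest in their list. Scn4b, Cacna2d3, Cacna1c, Cacna1a, Scn3a, Scn2b and the partner Cabp1 were added after their values were seen. The counts and medians cover all members, of which 3 are not reported here by name or drawn. The members, lists and rules were chosen with earlier results of these data known. No sample was left out of the main test.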

Additional observations from a re-analysis of the deposited data

How the results depend on the processing

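Of the log2 fold changes of the members that were followed, 123 values kept their direction and their side of an unadjusted p of 0.05, 32 no longer passed it, 2 newly passed it and 8 changed sign. The 32 all belonged to the 4 members called in the main fit, as the others followed had not passed it there. Cacna1d stayed under that p in 8 of 15 other settings, Cacna1h in 6, Hcn3 in 7 and Hcn4 in 7. Cacna1e gave 0.0065 with DESeq2 without saline sample 1 and -0.019 to 0.0054 with edgeR when each library was left out in turn, above 0 without morphine sample 3 and without saline sample 1. Cacna2d1 gave 0.0042 with DESeq2 without saline sample 1 and -0.030 to 0.017 with a library left out, above 0 without morphine sample 2 and without saline sample 1. Cacna2d3 gave -0.12 in both fits without saline sample 1 and -0.12 to 0.16 with a library left out. The causes of these changes were not tested. The count of members lower at an unadjusted p under 0.05, which was 4, was 2 with DESeq2, 1 in each limma fit, 0 with DESeq2 without saline sample 1, and 0 to 7 when each library was left out in turn (0 without morphine sample 1, 1 without saline sample 1 and 7 without saline sample 2). The count higher, which was 0, was 3 without the filter and 0 to 4 with a library left out (4 without saline sample 2). Shares of all genes called are given only for the main fit (2.77% higher, 4.96% lower) and for edgeR without saline sample 1 (4.14% and 7.53%). The counts of members and partners in the other settings are therefore not read as results about them. Without the filter, 9 members were called in all, 3 of them among the 4, and Hcn4 alone reached an adjusted p under 0.05 (0.0062 in edgeR). The replicate numbers did not pair the samples (correlations 0.02, 0.01 and -0.03). The replicate block gave 1 member higher (Scn4b) and 2 lower, and for partners 1 lower. Members that did not overlap on the higher side numbered 1 with RLE factors, without the filter and in each FPKM fit. With a library left out they numbered 0 to 6, and on the lower side 3 to 7. A group is then smaller, so the groups separate more easily, and the share of all genes in these settings is not given. No change in the members is read from these counts. DESeq2 and the block give no values of their own for overlap. The members' median was 0.019 with DESeq2 and -0.0084 to 0.017 with a library left out. Partners higher numbered 3 without the filter and 0 to 5 with a library left out, and partners lower numbered 1 with DESeq2 and in each limma fit and 0 to 5 with a library left out. The standard errors of members ran from 0.05 to 0.48, largest in low-count genes such as Cacna1s, where small differences were not detectable at this depth.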
